A study of Mus musculus with 12 samples.

Results

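The 10 genes described here encode scavenger and endocytic receptors and other proteins by which macrophages at the borders of the brain are commonly recognised: Mrc1, Cd163, Msr1, Stab1, Lyve1, Folr2, Cd93, Dab2, F13a1 and Cbr2. They were taken by gene symbol from the deposited expression table, in which each matched 1 Ensembl identifier, and they are 10 of 25904 genes. RNA was sequenced from sorted mouse cells in 12 libraries, 3 in each of 4 groups on the C57BL/6 background. WT microglia came from Tgfbr2 fl/fl mice, which carry no Cre. KO microglia came from Cx3cr1CreER/+ Tgfbr2 fl/fl mice, in which a tamoxifen-activated Cre made from 1 Cx3cr1 allele deletes part of the TGF-beta receptor gene Tgfbr2 in Cx3cr1-expressing cells. The macrophages were progeny of bone marrow of these same genotypes, WT or KO, transplanted into irradiated Cx3cr1CreER/+ R26DTA/+ recipients. Tamoxifen, given to those recipients 6 weeks after the transplant, switched on diphtheria toxin in their own microglia, and the cells that then refilled the central nervous system (CNS) were collected. All groups received 3 daily tamoxifen injections of 5 mg and were sorted 18 to 22 days later as live Ly6C- CD11b+ cells.

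These groups limit what the comparisons can show. The F4/80 gate was low for WT cells and high for KO cells, so genotype and gate cannot be told apart. Only KO cells carried CreER, and with it 1 disrupted Cx3cr1 allele. The macrophage groups also differ from the microglia in origin, irradiation of the host and the time the cells had spent in the CNS. Cells of 1 to 5 mice were pooled for a library, and the p-values measure the spread between 3 such pools in each group. In bulk RNA from sorted cells, more cells that make a transcript and more transcript per cell cannot be told apart.

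Scavenger receptors bind modified lipoproteins, sugars, haemoglobin complexes and debris and carry them into the cell, where they are degraded. In the healthy brain, parenchymal microglia make little of most of these receptors, whereas perivascular, meningeal and choroid plexus macrophages make them in quantity and are often identified by Mrc1 (CD206), Cd163 and Lyve1. TGF-beta signalling is known to maintain the microglial expression program.

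Reads in genes numbered 2615404 to 6364994 per library, so that a single read counted as 0.718 to 1.6 normalized counts. Tgfbr2 itself stood at 2495 to 3172 normalized counts in WT microglia and 2078 to 2256 in KO microglia, and at 2997 to 3486 in WT macrophages and 2068 to 2469 in KO macrophages. Gene-level values do not resolve the deleted exons. Csf1r, the receptor on which microglia and macrophages depend, was at 9667 or more in every library. The microglial surface marker Tmem119 averaged 5681 and 2.17 normalized counts in WT and KO microglia and 1655 and 306 in WT and KO macrophages, so the sorted KO microglia held almost none of this defining transcript. The Y-linked Ddx3y was at 470.0 to 508 in the 3 KO microglia libraries and at 436 to 653 in 1 library of each other group, with 8.90 or less in the rest, so sex differed between pools. Replicate 1 of the KO macrophages had the lowest depth and the lowest mean correlation with its own group (r = 0.951, across genes, against 0.966 for both of the others), and calls or ratios of the 10 genes that changed most without it are given without it as well.

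RefSeq promoter windows of 5 of these genes are shown, 1 per gene, each the 250 bases before a transcript start on build GRCm38.p6. They stand for the patterns described below: Mrc1, Dab2 and Stab1 with the highest levels, Cd163 with a steep difference in KO cells of both origins, and F13a1 with its highest level in KO macrophages. Capitals mark matches, on either strand, to the PU.1 core GAGGAA or the SMAD box CAGAC, the motif of the transcription factors that carry the TGF-beta signal. The windows lie at chr2:14229164-14229413 (plus strand) for Mrc1, chr14:31168642-31168891 (minus) for Stab1, chr15:6299539-6299788 (plus) for Dab2, chr6:124304401-124304650 (plus) for Cd163 and chr13:37050245-37050494 (minus) for F13a1.
Mrc1: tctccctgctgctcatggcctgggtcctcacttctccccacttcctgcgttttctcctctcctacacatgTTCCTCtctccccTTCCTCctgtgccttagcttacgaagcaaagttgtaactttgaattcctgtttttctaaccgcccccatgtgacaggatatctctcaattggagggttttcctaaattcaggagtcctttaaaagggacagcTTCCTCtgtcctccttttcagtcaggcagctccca
Stab1: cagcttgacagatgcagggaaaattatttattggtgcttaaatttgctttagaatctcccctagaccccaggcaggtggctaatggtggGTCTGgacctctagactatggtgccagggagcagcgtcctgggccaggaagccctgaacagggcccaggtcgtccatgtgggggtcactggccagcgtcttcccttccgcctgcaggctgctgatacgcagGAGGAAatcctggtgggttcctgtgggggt
Dab2: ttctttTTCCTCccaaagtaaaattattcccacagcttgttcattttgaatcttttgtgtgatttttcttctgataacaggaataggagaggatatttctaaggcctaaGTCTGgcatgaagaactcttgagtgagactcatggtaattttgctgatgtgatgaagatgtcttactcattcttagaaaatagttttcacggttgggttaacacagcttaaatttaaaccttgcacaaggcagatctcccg
Cd163: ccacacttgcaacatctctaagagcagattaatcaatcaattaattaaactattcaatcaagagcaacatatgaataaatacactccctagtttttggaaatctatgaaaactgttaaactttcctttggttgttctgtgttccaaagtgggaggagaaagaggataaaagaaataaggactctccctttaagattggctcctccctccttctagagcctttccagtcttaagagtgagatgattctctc
F13a1: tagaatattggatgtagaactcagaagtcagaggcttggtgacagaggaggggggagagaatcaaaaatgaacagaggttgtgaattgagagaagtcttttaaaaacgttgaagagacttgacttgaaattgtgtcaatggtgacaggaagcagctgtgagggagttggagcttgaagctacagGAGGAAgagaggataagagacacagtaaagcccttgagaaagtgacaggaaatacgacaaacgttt
The Mrc1 window held 3 matches to the PU.1 core, the farthest beginning 180 bases before the start. Stab1 held 1 PU.1 match beginning 30 bases before the start and 1 SMAD box at 161, Dab2 held 1 of each, the PU.1 match at 244, F13a1 held 1 PU.1 match at 66, and the Cd163 window held neither. In all, 7 of the 10 genes had 10 RefSeq windows. PU.1 matches were in 6 of the 10 windows and 5 of the 7 genes, against 23.3% of 32851 promoter windows of the same length. SMAD boxes were in 5 windows of 4 genes, against 42.2% of all windows. An AP-1 site, TGANTCA, was in 1 window (Folr2), against 6.75% of all windows, and the MAF half-site TGCTGAC was in none, against 3.81%. The MAF and AP-1 motifs were also searched on both strands. A match is a string of letters and not evidence of binding.

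All 10 genes were higher in KO than in WT microglia, and their libraries did not overlap between the genotypes. The difference ran from 5.54-fold for Stab1 to 1002-fold for Cd93, and in the 3 KO microglia libraries the 10 genes together took up 1.01% to 1.02% of the reads in genes, against 0.0689% to 0.0828% in WT microglia. Of all 12519 genes tested, 21.9% were called higher in KO microglia and 20.6% lower, and 55.2% had libraries that did not overlap. A gene is called where limma's adjusted p is under 0.05. Differences, given ± SE, refer to log2 of the normalized count with 1 added, a scale that understates changes of low genes. Mean levels are in normalized counts ± SD over the 3 libraries of a group (n = 3). Lyve1, Cbr2 and Folr2 reached 10 normalized counts in 0, 1 and 1 of the 6 WT libraries and in all 6 KO libraries, so they passed the filter on low values only through the groups where they were high. The count of 10 is a description of these genes and of how they were chosen.

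Transcripts of some other cell types were also higher in KO microglia, while the sum of endothelial and lymphatic genes, given below, was lower. The sum of 9 neuron and macroglia genes was 197 to 225 normalized counts in WT and 433 to 449 in KO microglia, and all 7 of them that were tested were called higher, among them the astrocyte gene Gfap (log2 4.19 ± 0.52, adjusted p = 8.81e-06). The sum of 7 monocyte genes was 45.5 to 59.3 and 122 to 169. Of the 2 tested, the monocyte chemokine receptor Ccr2 was called higher (log2 2.005 ± 0.28, adjusted p = 2.61e-05), while Ly6c2 had no read in either microglia group. The sum of 7 dendritic cell genes was 83.7 to 92.1 and 167 to 185, with 3 of 5 tested genes called higher and none lower. Beside these counts stand 21.9% of all genes called higher in KO microglia and 20.6% called lower. The mitochondrial share of reads was 3.86% to 4.36% for WT microglia, against 5.84% to 7.68% for the KO libraries. In macrophages the neuron and macroglia sum was 217.6 to 267 in WT and 274 to 539 in KO libraries, with 4 of 7 tested genes called higher (16.0% of all genes). The ranges of the monocyte sum, the dendritic cell sum and the mitochondrial share overlapped between the genotypes of the macrophages. The part of these differences in the results for the 10 genes was not tested.

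The same 10 genes were also higher in KO than in WT macrophages, again without overlap, by 2.03-fold for Stab1 to 32.4-fold for Cbr2. Among all genes, 16.0% were called higher in KO macrophages and 15.4% lower, and 45.2% did not overlap. Among the called genes 50.9% were higher, and 40.7% when the libraries were scaled by total reads instead. The 10 genes took up 0.327% to 0.349% of the reads in WT macrophages and 0.816% to 1.02% in KO macrophages. Between the WT groups, 9 of the 10 genes were called higher in macrophages than in microglia and Lyve1 was not. In that comparison 19.2% of all genes were called higher and 20.2% lower, and 53.9% did not overlap. The WT groups, and the KO groups, are each used in more than 1 of these comparisons, which are therefore not independent.

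**Figure D1:**
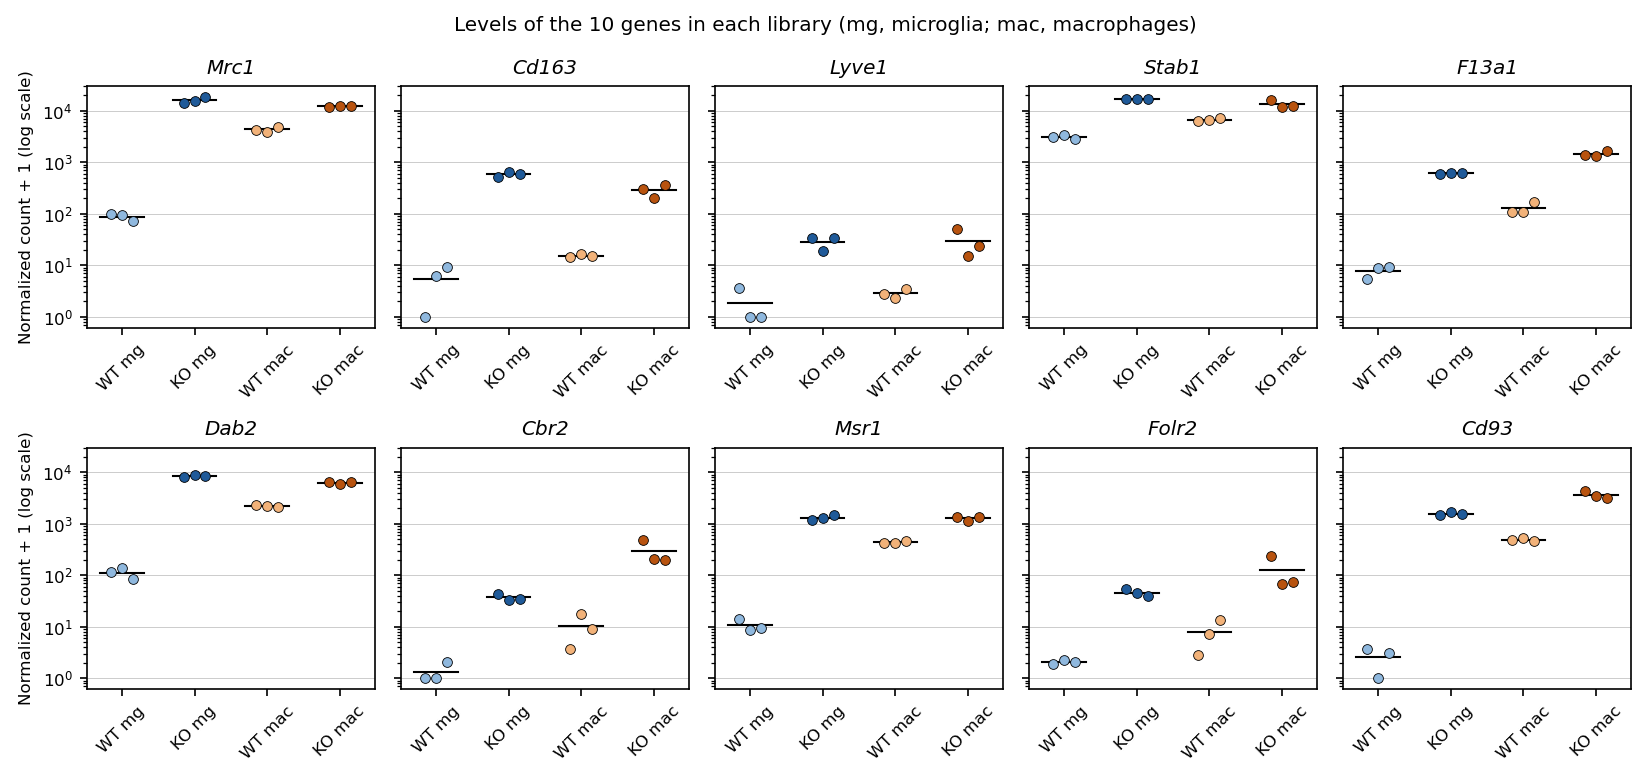
Normalized counts plus 1 (log axis) of the 10 genes in each library of WT and KO microglia (mg) and macrophages (mac), with points for the 3 libraries of a group and bars for the mean. WT microglia are lowest and WT macrophages second for each gene, and the KO groups of both origins sit above both WT groups.

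Mrc1 encodes the mannose receptor CD206, an endocytic lectin for mannose-bearing glycoproteins and collagen fragments (ENSMUSG00000026712, GRCm38 chromosome 2, 14229392 to 14332057, plus strand, protein coding). It read 96.9, 95.3 and 70.4 normalized counts in the WT microglia libraries and 14200.2, 15429 and 18616 in the KO microglia libraries. In WT macrophages it was at 4220.1, 3923 and 4923, and in KO macrophages at 11835, 12345 and 12365. The 4 groups did not overlap, with KO microglia on top. The difference between KO and WT microglia was log2 7.51 ± 0.13 (184-fold of the means, adjusted p = 1.75e-15), the 21st largest rise among the genes tested. In macrophages KO cells were 2.80-fold above WT (log2 1.49 ± 0.13, adjusted p = 4.66e-07), and WT macrophages stood 49.7-fold above WT microglia (log2 5.63 ± 0.13, adjusted p = 5.81e-14). Mir511, a microRNA gene on the same strand within Mrc1 (chromosome 2, 14261003 to 14261081), was at 0.881, 0 and 0 normalized counts in WT microglia and at 65.8, 69.8 and 81.2 in KO microglia. It was at 41.0, 34.3 and 34.6 in WT macrophages and at 20.8, 49.7 and 58.9 in KO macrophages, where the genotypes overlapped. Reads of total RNA over this locus cannot be told apart from the Mrc1 host transcript and do not measure the mature microRNA.

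Cd163 encodes the receptor for haemoglobin bound to haptoglobin (ENSMUSG00000008845, chromosome 6, 124304656 to 124330527, plus strand). Its levels were 0, 5.15 and 8.28 normalized counts in WT microglia, from 12 reads in all, and 507, 645 and 604 in KO microglia. WT macrophages had 13.7, 15.3 and 14.0, and KO macrophages 307, 201.6 and 367. Both KO groups lay far above both WT groups, and KO microglia exceeded KO macrophages in each library. The log2 difference between KO and WT was 7.24 ± 0.56 in microglia (adjusted p = 3.83e-08) and 4.22 ± 0.56 in macrophages (adjusted p = 3.87e-05). The ratio of means was 131 in microglia, or 227 without replicate 3 of the WT microglia, which held the most reads of its group, and 20.4 in macrophages. WT macrophages were 3.19-fold above WT microglia, or 5.55-fold without that library (log2 1.99 ± 0.56, adjusted p = 0.0104). This last call was lost with limma-voom on whole reads (adjusted p = 0.0556; range over the alternatives 0.00114 to 0.0556).

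Msr1 encodes the class A scavenger receptor for modified low-density lipoprotein (ENSMUSG00000025044, chromosome 8, 39581685 to 39642673, minus strand). It was at 13.2, 7.73 and 8.28 normalized counts in WT microglia and at 1178, 1309 and 1473 in KO microglia. WT macrophages had 414, 418 and 467, and KO macrophages 1356, 1139.6 and 1338. The KO groups of the 2 origins overlapped, and every other pair of groups was separate. The log2 difference between KO and WT was 6.97 ± 0.16 in microglia (135-fold, adjusted p = 2.85e-14) and 1.56 ± 0.16 in macrophages (2.95-fold, adjusted p = 2.34e-06). WT macrophages exceeded WT microglia by log2 5.37 ± 0.16 (adjusted p = 8.49e-13).

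Stab1 encodes stabilin-1, a large scavenger receptor for acetylated lipoprotein and matrix proteins (ENSMUSG00000042286, chromosome 14, 31139013 to 31168641, minus strand). Unlike the other genes it was abundant in WT microglia, where it read 3087, 3399 and 2816 normalized counts. KO microglia had 17179.7, 17343 and 16969, WT macrophages 6489, 6581 and 7205, and KO macrophages 16381, 12141 and 12594. The groups were separate for this gene, including the KO groups, although replicate 1 of the KO macrophages came close to the KO microglia. KO exceeded WT by log2 2.47 ± 0.11 in microglia (5.54-fold, adjusted p = 9.60e-11) and by 1.01 ± 0.11 in macrophages (2.03-fold, adjusted p = 7.80e-06). These were the smallest differences among the 10 genes in each origin. WT macrophages were 2.18-fold above WT microglia (log2 1.13 ± 0.11, adjusted p = 1.26e-06). Nt5dc2 overlaps Stab1 on the other strand, reached no more than 91.5 normalized counts in any library, and differed by only log2 0.02 ± 0.35 between KO and WT microglia (adjusted p = 0.970).

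Lyve1 encodes a hyaluronan receptor of lymphatic vessels and of a subset of perivascular and meningeal macrophages (ENSMUSG00000030787, chromosome 7, 110850607 to 110863239, minus strand). Its levels were low throughout, at 2.64, 0 and 0 normalized counts in WT microglia, from 3 reads, and at 1.82, 1.27 and 2.47 in WT macrophages, from 6 reads. KO microglia had 32.4, 17.7 and 33.0, and KO macrophages 49.6, 14.0 and 22.3. The WT groups overlapped each other, as did the KO groups, and every KO library exceeded every WT library. KO exceeded WT by log2 4.17 ± 0.58 in microglia (adjusted p = 2.60e-05), a ratio of means of 31.4 with an exact 95% counting interval of 10.4 to 155. In macrophages the difference was 3.21 ± 0.58 (adjusted p = 0.000624), with a ratio of 15.4, or 9.77 without replicate 1 of the KO macrophages. Between the WT groups the log2 difference of 0.87 (95% interval -0.36 to 2.10, adjusted p = 0.258) was not called and not detectable at this depth.

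Because Lyve1, Stab1 and Cd93 are also made by vessel endothelium, the levels of 10 endothelial and lymphatic genes were summed in each library. The sum was 365 to 468 normalized counts in WT and 190 to 207 in KO microglia, and 59.7 to 91.0 in WT and 120.0 to 190 in KO macrophages. It was lower in KO than in WT microglia and higher in KO than in WT macrophages. Most of it came from Prox1 and Pecam1 in microglia, and from Pecam1 in KO macrophages. In WT macrophages Prox1 and Pecam1 averaged 0.549 and 13.3. The members did not move as 1 group. Of 6 tested, only the adhesion molecule Pecam1, which leukocytes make as well, was called in microglia (178.5 ± 57.7 in WT and 27.8 ± 1.54 in KO, log2 -2.59 ± 0.30, adjusted p = 4.44e-06). In macrophages Pecam1 (13.3 ± 5.75 in WT and 103 ± 20.0 in KO, log2 2.93 ± 0.30, adjusted p = 3.36e-06) and Prox1 (adjusted p = 0.0306) were called higher. Among all genes, 21.9% were called higher and 20.6% lower in KO microglia, and 16.0% and 15.4% in KO macrophages. Esam and Pdpn were at 0 reads in WT microglia, Esam in KO microglia, and Tek and Emcn in KO macrophages. Flt4, on the same list, was not tested and reached at most 2.73 normalized counts in any library. Prox1, the factor that defines lymphatic endothelium, averaged 178 and 82.4 in WT and KO microglia (adjusted p = 0.0810) and 0.549 and 3.54 in WT and KO macrophages, and the endothelial cadherin Cdh5 averaged 10.8, 9.11, 4.01 and 5.50. The part of endothelial RNA in the results of the 3 genes was not tested. The sum of 7 fibroblast and mural genes was at most 15.7 in any library.

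Folr2 encodes folate receptor beta, the folate receptor of macrophages (ENSMUSG00000032725, chromosome 7, 101839988 to 101857194, minus strand). It was at 0.881, 1.29 and 1.03 normalized counts in WT microglia, from 3 reads, and at 52.0, 45.2 and 37.8 in KO microglia. WT macrophages had 1.82, 6.35 and 12.3, and KO macrophages 232, 68.1 and 74.7. The 4 groups were separate, but the spread was wide within both macrophage groups. The log2 difference between KO and WT was 4.47 ± 0.53 in microglia (adjusted p = 5.04e-06), a ratio of 42.1 with a counting interval of 14.1 to 207. In macrophages it was 4.03 ± 0.53 (adjusted p = 3.59e-05), a ratio of 18.3, which became 10.4 without replicate 1 of the KO macrophages and 30.6 without replicate 3 of the WT macrophages. Between the WT groups the difference of log2 1.66 ± 0.53 (adjusted p = 0.0212) rested on 3 reads against 22, with a ratio of 6.40 (counting interval 1.92 to 33.4), or 3.83 without replicate 3 of the WT macrophages. That call was lost in 6 alternatives, among them those without replicate 1 of the WT microglia (adjusted p = 0.0591) and without replicates 2 or 3 of the WT macrophages (0.0629 and 0.114), and the adjusted p ranged from 0.00248 to 0.312 over the alternatives. The antisense gene Gm10602 overlaps Folr2 and reached at most 14.4 normalized counts.

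Cd93 encodes a C-type lectin-like receptor of myeloid cells and endothelium that takes part in the clearance of dying cells and in cell adhesion (ENSMUSG00000027435, chromosome 2, 148436640 to 148443563, minus strand). It had 5 reads in all in WT microglia, at 2.64, 0 and 2.07 normalized counts, and 1508, 1676 and 1537 in KO microglia. WT macrophages had 483, 533 and 464, and KO macrophages 4328, 3478 and 3225. The 4 groups were separate, with KO macrophages on top. The difference between KO and WT microglia was log2 9.46 ± 0.32 (adjusted p = 3.18e-12), the 3rd largest rise among the 12519 genes tested. The ratio of means was 1002, or 1521 without replicate 1 of the WT microglia. In macrophages KO exceeded WT 7.45-fold (log2 2.89 ± 0.32, adjusted p = 7.81e-06). WT macrophages exceeded WT microglia by log2 7.79 ± 0.32 (314-fold, or 477-fold without that WT microglia library; adjusted p = 6.81e-11), the 13th largest rise of that comparison.

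Dab2 encodes an adaptor that couples receptors to clathrin for endocytosis (ENSMUSG00000022150, chromosome 15, 6299788 to 6440712, plus strand). WT microglia held 116, 137 and 82.8 normalized counts and KO microglia 8086, 8743 and 8611. WT macrophages had 2299, 2175 and 2152, and KO macrophages 6441, 6071 and 6439.8. The groups did not overlap, and apart from WT microglia the libraries of a group lay close together. KO exceeded WT by log2 6.26 ± 0.13 in microglia (75.8-fold, adjusted p = 1.36e-14) and by 1.52 ± 0.13 in macrophages (2.86-fold, adjusted p = 4.41e-07). WT macrophages exceeded WT microglia by 4.32 ± 0.13 (19.7-fold, adjusted p = 1.24e-12).

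F13a1 encodes the A subunit of coagulation factor XIII, a transglutaminase that cross-links fibrin and is made by tissue macrophages (ENSMUSG00000039109, chromosome 13, 36867178 to 37050244, minus strand). WT microglia had 4.41, 7.73 and 8.28 normalized counts and KO microglia 593, 621 and 633. WT macrophages had 107, 107 and 171, and KO macrophages 1361, 1302 and 1636. The 4 groups were separate, and KO macrophages exceeded KO microglia. KO exceeded WT by log2 6.34 ± 0.20 in microglia (90.5-fold, adjusted p = 1.54e-12) and by 3.50 ± 0.20 in macrophages (11.2-fold, adjusted p = 1.06e-08). WT macrophages exceeded WT microglia by 4.05 ± 0.20 (18.8-fold, adjusted p = 6.20e-10).

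Cbr2 encodes a carbonyl reductase that marks several kinds of tissue macrophage (ENSMUSG00000025150, chromosome 11, 120729489 to 120732114, minus strand). A single read was counted in WT microglia, giving 0, 0 and 1.03 normalized counts, against 43.2, 31.5 and 33.8 in KO microglia. WT macrophages had 2.73, 16.5 and 8.23, and KO macrophages 487, 205 and 197. KO macrophages were highest and the groups were separate, but WT macrophages spread over a range wider than their mean. KO exceeded WT by log2 4.86 ± 0.51 in microglia (adjusted p = 1.43e-06), a ratio of 105 with a counting interval of 18.4 to 4173. In macrophages the difference was 5.00 ± 0.51 (adjusted p = 3.13e-06), the 30th largest rise of that comparison, with a ratio of 32.4, or 22.0 without replicate 1 of the KO macrophages and 54.1 without replicate 2 of the WT macrophages. WT macrophages exceeded WT microglia by 2.74 ± 0.51 (adjusted p = 0.000562; ratio 26.6, counting interval 4.36 to 1089, or a ratio of 15.9 without that WT macrophage library). With limma-voom this call was lost (adjusted p = 0.119; range over the alternatives 8.63e-05 to 0.119).

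In the KO cells the order of the origins differed between the genes. F13a1, Cbr2 and Cd93 were higher in KO macrophages than in KO microglia, Dab2 was lower, and 6 of the 10 genes were not called. Of all genes, 5.45% were called higher in KO macrophages, 5.05% were called lower and 27.1% had libraries that did not overlap, against 8 of these 10, the exceptions being Lyve1 and Msr1. F13a1 was 2.33-fold higher (log2 1.21 ± 0.20, adjusted p = 0.000877) and Cbr2 was 8.20-fold higher, or 5.57-fold without replicate 1 of the KO macrophages (log2 2.88 ± 0.51, adjusted p = 0.00143). Both calls were kept in every alternative computed. Cd93 was 2.34-fold higher (log2 1.21 ± 0.32, adjusted p = 0.0250), and 8 alternatives lost this call. Dab2 was lower by a factor of 1.34 (log2 -0.42 ± 0.13, adjusted p = 0.0490), and 12 alternatives lost that one.

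For Cd93 those alternatives include leaving out any 1 of the KO microglia libraries (adjusted p of 0.0634 to 0.0901) or replicate 2 of the KO macrophages (0.0505), over a range of 7.09e-07 to 0.125 for all alternatives. For Dab2 they include leaving out replicate 1 of the WT microglia, any KO microglia library, any WT macrophage library, or replicates 2 or 3 of the KO macrophages (0.0634 to 0.150), over a range of 0.00185 to 0.150. Mrc1 and Stab1 differed by log2 -0.39 ± 0.13 (adjusted p = 0.0672) and -0.34 ± 0.11 (adjusted p = 0.0765), and each was called in some alternatives, Mrc1 without replicate 3 of the WT microglia (0.0288) and Stab1 without replicate 1 of the KO macrophages (0.00126). Over all alternatives the adjusted p of Mrc1 ran from 0.00223 to 0.261 and that of Stab1 from 0.00126 to 0.239. Cd163 differed by -1.04 (95% interval -2.23 to 0.15, adjusted p = 0.296), and leaving out replicate 1 of the WT microglia, which had no Cd163 read, gave the same difference with an SE of 0.22 in place of 0.56 and an adjusted p of 0.00753 (range over the alternatives 0.000502 to 0.631). The intervals were -1.32 to 1.14 for Lyve1 (adjusted p = 0.951) and -0.38 to 0.29 for Msr1 (adjusted p = 0.902), so that a difference of either sign was possible. Folr2 differed by 1.23 ± 0.53 (95% interval 0.10 to 2.36, adjusted p = 0.181), with a ratio of 2.78, or 1.59 without replicate 1 of the KO macrophages. For Lyve1 the ratio of 1.03 became 0.654 without that library.

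The difference between KO and WT was then compared between macrophages and microglia by the interaction of the same model. It was smaller in macrophages for 7 of the 10 genes, and not called for Lyve1, Cbr2 and Folr2. Across all genes, 13.0% had a higher and 12.9% a lower KO effect in macrophages by the same call. The interaction was largest for Cd93 (log2 -6.57 ± 0.46, adjusted p = 7.87e-08), Mrc1 (-6.02 ± 0.18, adjusted p = 5.72e-12) and Msr1 (-5.41 ± 0.22, adjusted p = 1.72e-10). Dab2 (-4.74 ± 0.18, adjusted p = 9.19e-11), F13a1 (-2.84 ± 0.29, adjusted p = 3.67e-06) and Stab1 (-1.46 ± 0.16, adjusted p = 7.78e-06) followed. Over the alternatives the interaction of Cd93, which had 5 reads in WT microglia, ran from -7.06 to -5.05. For Mrc1 it ran from -6.11 to -5.87, so the order of Cd93 and Mrc1 changed between alternatives. The interaction of Cd163 was -3.03 ± 0.79 (adjusted p = 0.0108), and robust variance estimation ended this call (adjusted p = 0.0530; range over the alternatives 0.000551 to 0.0530). The genes not called had intervals of -2.70 to 0.78 for Lyve1 (adjusted p = 0.424), -1.41 to 1.69 for Cbr2 (0.910) and -2.03 to 1.16 for Folr2 (0.717). For Cbr2 the estimate of 0.14 became 1.46 ± 0.51 with a pseudocount of 5 (adjusted p = 0.0444; range over the alternatives 0.0444 to 0.972). These 3 genes had 1 to 3 reads in all in WT microglia, where the pseudocount sets much of the log2 difference.

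**Figure D2:**
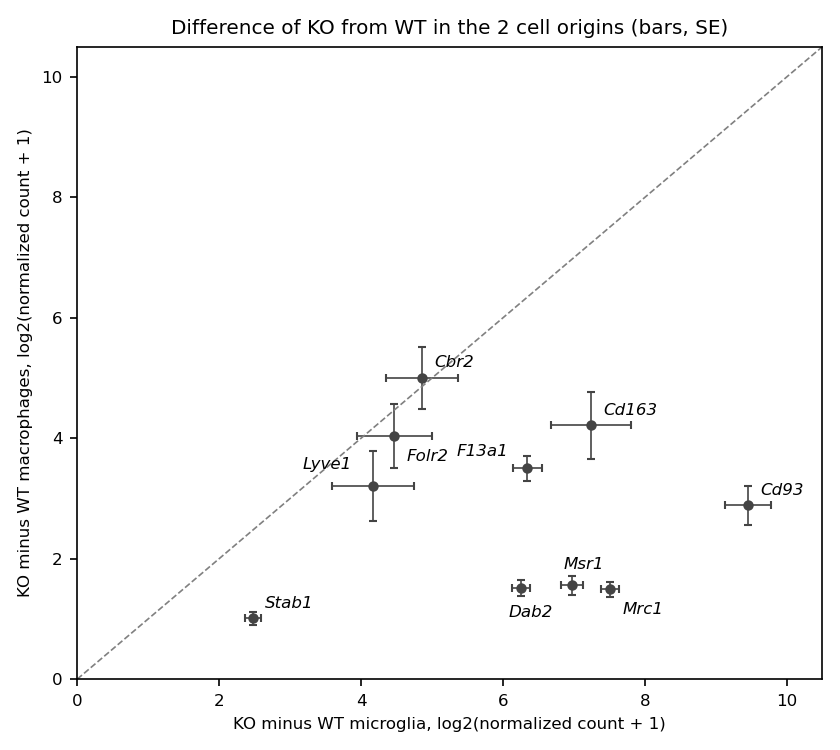
Log2 difference between KO and WT for each of the 10 genes in microglia (horizontal axis) and in macrophages (vertical axis), with bars for the SE and a dashed line where both are equal. Cbr2, Folr2 and Lyve1 lie near the line, and the other 7 genes lie below it, farthest for Cd93 at 9.46 and 2.89.

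WT macrophages were not the upper end of the range for any of the 10 genes. KO microglia exceeded WT macrophages for each gene, without overlap of libraries, by 2.54-fold for Stab1, 3.05-fold for Msr1, 3.19-fold for Cd93, 3.69-fold for Mrc1, 3.84-fold for Dab2, 3.95-fold for Cbr2, 4.81-fold for F13a1 and 6.58-fold for Folr2. For Lyve1 it was 14.9-fold and for Cd163 40.9-fold. These ratios were not tested, since the groups differ in genotype and origin together. The order of the 4 groups therefore started with WT microglia and WT macrophages for all 10 genes. KO microglia were highest for Mrc1, Cd163, Stab1, Dab2 and Msr1, and KO macrophages for Lyve1, F13a1, Cbr2, Folr2 and Cd93, with overlapping libraries at the top for Msr1 and at both ends for Lyve1.

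Levels were compared between genes as normalized counts per kb of exon. In WT microglia Stab1, at 301 ± 28.3 per kb, made up 89.9% ± 0.67 of the summed level of the 10 genes, and Dab2 and Mrc1 4.50% and 4.09%. In KO microglia Mrc1 led with 2524 ± 358 per kb, or 41.6% ± 3.14 of the sum, ahead of Stab1 with 27.6% and Dab2 with 19.1%. WT macrophages had shares of 37.5% for Mrc1, 36.2% for Stab1 and 16.6% for Dab2. By the means, the KO microglia thus had Mrc1, Stab1 and Dab2 in the same order as WT macrophages, at a summed level several times higher. In WT macrophages Mrc1 and Stab1 were close, and replicate 2 had Stab1 above Mrc1 (640 and 616 per kb). KO macrophages had 35.4% for Mrc1, 24.4% for Stab1 and 15.9% for Dab2. By the means, the next places were held by Cd93 with 10.1% ± 0.832, Cbr2 with 4.0% ± 1.85 and F13a1 with 3.93% ± 0.634. Msr1 was close behind with 3.71%. The place of Cbr2 rested on replicate 1 of the KO macrophages. In replicates 2 and 3 Cbr2 was below both F13a1 and Msr1 per kb. In KO microglia Cd93 made up 3.90% and Cbr2 0.454%. Lyve1 made up at most 0.175% in any group.

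**Figure D3:**
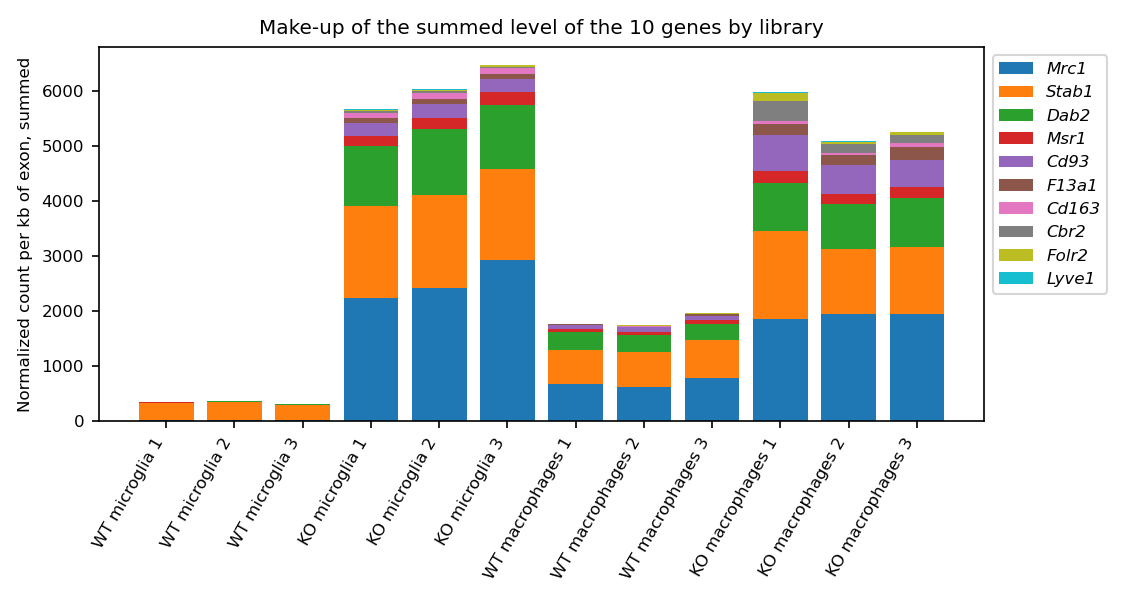
Normalized counts per kb of exon of the 10 genes, stacked, in each of the 12 libraries. Stab1 makes up nearly all of the short WT microglia bars, Mrc1, Stab1 and Dab2 most of the others, and Cd93 and Cbr2 are visible mainly in the KO macrophage bars.

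Within the groups the genes differed in how far the replicate pools spread. In KO macrophages Mrc1 ranged over 0.0435 of its mean, Dab2 over 0.0586 and Msr1 over 0.169. Folr2 ranged over 1.31 of its mean, Lyve1 over 1.25 and Cbr2 over 0.975. Replicate 1 stood highest for all 3 of these wide-ranging genes, and it was the highest library of its group for 7 of the 10 genes. It was also the highest for 20 of 22 other border macrophage markers (90.9%) but for 39.6% of all tested genes, and for 3 of 14 other scavenger receptors. The same library had the highest sum of 9 neuron and macroglia genes in its group, 539 normalized counts against 299 and 274, and the lowest sum of 7 dendritic cell genes, 170 against 346 and 300. The part of these transcripts in its high values was not tested. In KO microglia Stab1 ranged over 0.0218 of its mean and F13a1 over 0.0654, and Lyve1 was widest at 0.551. Mrc1 ranged there over 0.275 of its mean and Msr1 over 0.223, both wider than in KO macrophages.

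**Figure D4:**
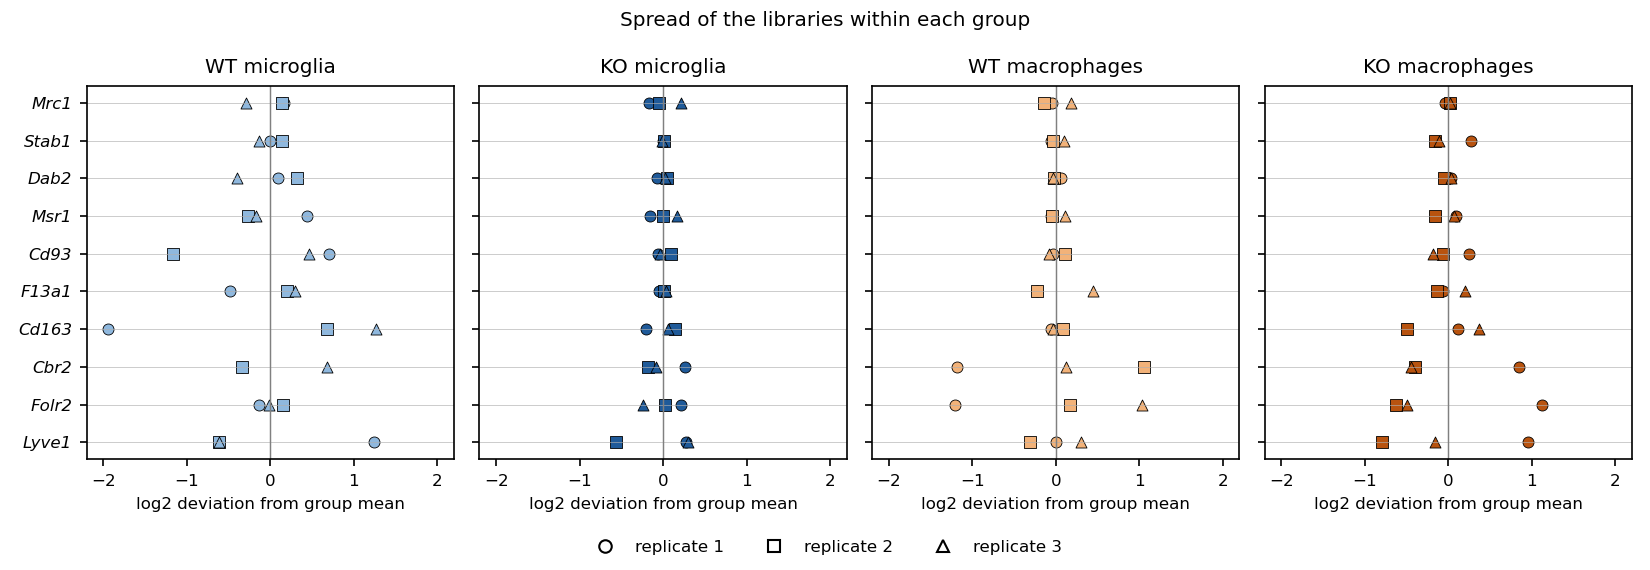
Log2 deviation of each library from the mean of its group for the 10 genes, in 4 panels by group, with a symbol for each replicate. Replicate 1 of the KO macrophages lies to the right for Cbr2, Folr2 and Lyve1, and the WT microglia spread widely for the genes with few reads.

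Over the 12 libraries the log2 levels of the 10 genes were correlated with each other at Pearson r of 0.808 (Lyve1 and Cd93) to 0.998 (Mrc1 and Msr1). These values describe 4 groups of 3 libraries that share their group differences and depth, and they carry no test. For each gene, the other tested genes with the most similar levels over the 12 libraries were sought. For Mrc1 they were Plxnc1 (r = 0.995), a semaphorin receptor, and Itsn1 (r = 0.995), an endocytic scaffold protein, and for Dab2 they were Dse (r = 0.995) and the platelet factor 4 gene Pf4 (r = 0.994). Msr1 was most like AB124611 (r = 0.995) and Sh3pxd2b (r = 0.995), and Cd93 most like Ly9 (r = 0.995) and again AB124611 (r = 0.994). Stab1 was closest to Tmem8 (r = 0.996) and to Asgr2 (r = 0.996), a subunit of the asialoglycoprotein receptor, and F13a1 to Rbbp8 (r = 0.995) and the C-type lectin gene Clec4n (r = 0.993). The closest genes of the less abundant members were less alike, with Cmpk2 (r = 0.987) and Syne2 (r = 0.986) for Cd163, Vat1 (r = 0.978) and Cenpf (r = 0.975) for Lyve1, Pdgfc (r = 0.979) and Capn2 (r = 0.977) for Cbr2, and Wdr62 (r = 0.988) and the elastase gene Mmp12 (r = 0.975) for Folr2.

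Other scavenger receptors did not share one direction. Of 22 listed, 14 were tested and 8 were too low, among them Marco, which stayed at or below 2.07 normalized counts. In KO microglia 8 of the 14 were higher, 5 lower and 1 was not called, where 21.9% of all genes were higher and 20.6% lower, with a median log2 difference of 0.97 against -0.01 over all genes tested. In KO macrophages 4 were higher, 1 lower and 9 not called, beside 16.0% and 15.4% of all genes, with a median of 0.05 against 0.00. Timd4, a phosphatidylserine receptor, was called higher in KO microglia, at 57.7 ± 11.8 normalized counts against 0.588 ± 1.02 from 2 reads (ratio 98.2, counting interval 26.8 to 817, adjusted p = 1.97e-06). It had a single read in each macrophage group, and its interaction was log2 -5.42 ± 0.83 (adjusted p = 0.000184). Timd4 passed the filter on low values only through KO microglia, the group where it was high. Mrc1 and Cd163, by comparison, were raised in KO cells of both origins. Stab2, the paralog of Stab1, was called higher in KO macrophages, at 326 ± 56.6 against 7.46 ± 2.62 (log2 5.30 ± 0.39, adjusted p = 9.71e-08), and averaged 22.6 in KO microglia. Stab2 likewise passed the filter on low values only through the KO groups, where it was high. The fatty acid and lipoprotein receptor Cd36 rose in KO microglia by log2 4.71 ± 0.34 (adjusted p = 1.81e-08) and the apoptotic cell receptor Axl by 4.55 ± 0.23 (adjusted p = 3.36e-10). In the other direction, KO microglia had less of the apoptotic cell receptor Mertk, which fell by 1.15 ± 0.10 on the log2 scale (adjusted p = 1.85e-07), and of the lipoprotein receptor Lrp1, which fell by 1.06 ± 0.10 (adjusted p = 5.92e-07). In KO macrophages the lipoprotein receptor Scarb1 rose by log2 2.18 ± 0.15 (adjusted p = 4.94e-08) and the lysosomal Cd68 by 1.15 ± 0.15 (adjusted p = 4.50e-05), and the lysosomal Scarb2 fell by 0.43 ± 0.10 (adjusted p = 0.00570).

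Most other markers of border macrophages were higher in KO cells as well. Of 22 tested, 20 were higher in KO microglia, 1 was lower and 1 was not called (all genes: 21.9% higher, 20.6% lower), with a median log2 difference of 4.04 against -0.01 over all genes. In KO macrophages 15 were higher, none was lower and 7 were not called (all genes: 16.0% and 15.4%), with a median of 1.21 against 0.00. The largest rises in KO microglia were those of Ms4a7, a membrane protein of border macrophages (log2 9.10 ± 0.31, adjusted p = 3.26e-12), the lectin gene Clec10a (9.08 ± 0.27, adjusted p = 5.89e-13) and the chemokine gene Pf4 (8.85 ± 0.29, adjusted p = 1.54e-12). In WT microglia 1 read each was counted for Clec10a and Pf4, so the ratios of means were 2270.2 with a counting interval of 407 to 89711 and 1431 with 257 to 56559. In KO macrophages the largest rises were those of Fcna, a ficolin with no read in WT macrophages and 85.1 ± 45.9 normalized counts in KO macrophages (at least 85.0-fold higher against a floor of 3 reads over the group, adjusted p = 1.79e-06), the chemokine gene Ccl8 (log2 5.75 ± 0.50, adjusted p = 5.41e-07) and Clec10a (5.67 ± 0.27, adjusted p = 1.19e-09). Fcna passed the filter on low values only through KO macrophages, and Ccl8 only through the KO groups, where they were high. Between the WT groups 14 of the 22 markers were higher in macrophages, 3 lower and 5 not called (all genes: 19.2% and 20.2%). In the interaction 14 had a lower and 2 a higher KO effect in macrophages (all genes: 12.9% and 13.0%), and Ms4a7 had the lowest value among them (log2 -8.71 ± 0.44, adjusted p = 2.05e-09).

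**Figure D5:**
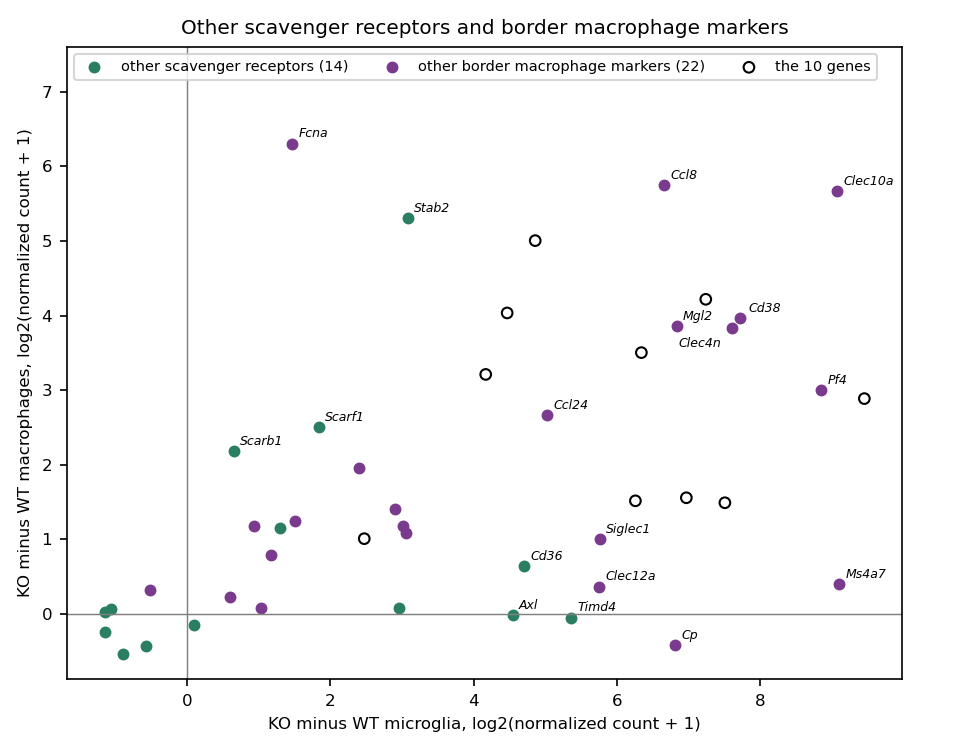
Log2 difference between KO and WT in microglia (horizontal axis) and macrophages (vertical axis) for 14 other scavenger receptors, 22 other border macrophage markers and the 10 genes (open circles). The border markers extend to the right and upward with the 10 genes, and several scavenger receptors lie below 0 on the horizontal axis.

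Paralogs and partners of the 10 genes gave mixed results. Of 31 in the table, 18 were tested, and in KO microglia 5 were higher, 6 lower and 7 not called, with a median log2 difference of -0.31 against -0.01 over all genes. Those counts lie near the shares of all genes called, 21.9% higher and 20.6% lower. Mrc2, the paralog of Mrc1, went the other way, from 497 ± 142 normalized counts in WT microglia to 1.13 ± 1.21 in KO microglia (log2 -8.01 ± 0.65, adjusted p = 6.54e-08), and it averaged 2.59 in WT and 1.06 in KO macrophages. Mrc2 passed the filter on low values only through WT microglia, the group where it was high. Tgm2, a transglutaminase like F13a1, fell by 5.49 ± 0.30 (log2) in the KO microglia (adjusted p = 7.82e-10) and fell by 1.23 ± 0.30 in the macrophages (adjusted p = 0.00627). Cd44, the other main hyaluronan receptor beside Lyve1, rose by log2 3.08 ± 0.14 in the KO microglia (adjusted p = 9.70e-11) and by 1.82 ± 0.14 in the KO macrophages (adjusted p = 1.70e-07). The iron exporter Slc40a1 rose by 2.33 ± 0.12 (adjusted p = 3.52e-10) and 4.02 ± 0.12 (adjusted p = 2.15e-11). Of the 18, 6 were higher, 2 lower and 10 not called in KO macrophages, where 16.0% of all genes were higher and 15.4% lower. The haptoglobin gene Hp, whose product forms the complex that Cd163 binds, was not tested and reached at most 3.81 normalized counts.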

How the data were processed

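Total RNA of 12 libraries was made with a stranded pico-input kit, per the labels' protocols. The authors deposited 1 table of log2 values for 25904 genes, with 1 column per library and none left over. The submitters' processing notes name STAR, CASAVA, bcl2fastq and build GRCm38. Versions, the read counter with its strand setting, and the method of normalization: not given in the sources used here. Without the strand setting, overlapping genes cannot be told apart. Each deposited log2 value, once raised as a power of 2 and reduced by 1, was a whole number of reads times a constant of its library (100% of 310848 values, tolerance 0.01 reads). The inverse of each constant equalled a size factor computed from the reads as the median of ratios across genes, with a largest difference of 7.69e-10. These normalized counts and reads were used as levels. The main test used the deposited log2 values, and no count model was fitted there. The recovered whole reads were used in some alternatives, limma-voom among them.

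Symbols, positions and exon lengths came from GENCODE mouse release M21, in which 25730 identifiers had a symbol. Promoter windows came from RefSeq on GRCm38.p6 and were searched on both strands.

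Testing was limited to the 12519 genes that reached 10 normalized counts in 3 or more libraries, which left out 13385, and used limma 3.58.1 in R 4.3.3. The fit used lmFit with 1 mean per group, then eBayes with a mean-variance trend, with 8 residual degrees of freedom and prior degrees of freedom of 6.64 at the median gene. P-values were adjusted by Benjamini-Hochberg over all tested genes, with a threshold of 0.05 and no fold minimum. Two-sided tests were used throughout. Groups came from the sample labels, and replicate numbers only name libraries in accession order. Where a group held 1 to 3 reads, an exact 95% binomial counting interval was given for the ratio of means, and where it held 0, a floor of 3 reads over the group. Both cover counting error only: reads not marked by molecular identifiers are not independent molecules. Other steps used Python 3.11.15, pandas 2.3.3, numpy 2.4.6, scipy 1.17.1 and matplotlib 3.10.9. The fit was tested on simulated data.

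The 10 genes and the lists were chosen with earlier results of these data known. All 10 genes are named in each comparison. For the largest lists (other scavenger receptors, other border macrophage markers, paralogs and partners) the rule took counts, the median and, per comparison, the 3 called genes with the largest rise and the 2 with the largest fall whose higher group averaged at least 50 normalized counts; not all of these are printed. The border macrophage marker that fell in KO microglia is not reported here by name. The 2 most similar genes of each member have the highest Pearson r over the libraries, leaving out unnamed, mitochondrial and Rn genes. Marco, Hp, Gfap, Ccr2, Pecam1, Prox1, Cdh5, Esam, Pdpn, Tek, Emcn, Flt4, Csf1r, Tmem119, Ddx3y, Mir511 and the overlapping and neighbouring genes were named outside that rule, some of them after their values were seen. The lists of monocyte, dendritic cell, neuron and macroglia, fibroblast and mural, and endothelial genes were summed in each library, and their tested genes were counted from the same fit.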

Additional observations from a re-analysis of the deposited data

Results flagged for a closer look

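For 7 of the 10 genes the KO effect in macrophages differed from that in microglia by a test of the difference itself, the interaction term of limma's model. The effect in macrophages minus that in microglia, on the log2 scale, was -6.57 for Cd93, -6.02 for Mrc1, -5.41 for Msr1, -4.74 for Dab2, -3.03 for Cd163, -2.84 for F13a1 and -1.46 for Stab1. For each of them KO libraries exceeded WT libraries in both origins, so the effects differed in size and not in sign. WT macrophages stood above WT microglia for each of the 7 genes, from 2.18-fold for Stab1 to 314-fold for Cd93. The KO groups of the 2 origins differed by at most 2.34-fold for these genes. On the log2 scale the interaction is the difference between these 2 comparisons, so they restate it. Why the effects differed in size was not tested. The macrophage and microglia effects come from separate libraries, but the F4/80 gate changed with the genotype in both.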

How the results depend on the processing

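There were 23 alternatives, of which 12 left out a library and 11 changed the filter, pseudocount, scaling, variance model, samples or covariate. Each value had 21 to 23 of them, since the interaction cannot be fitted on only the groups compared and Lyve1 fails the stricter filter. No paired analysis was possible because the labels carry no replicate numbers shared between groups. Of 1135 recomputed values of the 10 genes, 1093 stayed on the same side of the threshold, 29 lost the call, 13 gained it and 0 reversed a called direction. Of the 1093, 13 changed sign without being called, in the interaction of Cbr2 and Folr2 and in the comparison of the KO groups for Lyve1 and Msr1. The number of genes called between KO macrophages and KO microglia was 4. It was 2 with a pseudocount of 0.5 and 2 with eBayes without a trend, and 2 to 5 when a library was left out; the counts of 2 lost Cd93 and Dab2. It was 6 with upper quartile scaling and 6 with limma-voom. The other counts stayed within 1.5 times: 9 to 10 for KO against WT in each origin, where a filter of at least 50 normalized counts removed Lyve1, 6 to 9 between the WT groups, and 6 to 8 for the difference of the KO effects. Of the 22 other border macrophage markers, 14 were called between the KO groups, and 9 without a trend, without replicate 1 or without replicate 2 of the KO microglia. With the Ddx3y level as a covariate, all 10 genes were called in KO against WT of both origins. Depth limits Lyve1, Cbr2, Folr2, Cd163 and Cd93 in WT microglia, which had 1 to 12 reads each there.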

Other observations

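Among the genes present in the deposited data, the nearest protein-coding genes on each side of the 10 genes, and 1 that overlaps, were 21 genes. Genes without any read are absent from those data, so nearer genes can exist. Of the 21 genes, 16 were tested. In KO microglia 8 of the 16 were called higher (21.9% of all genes) and 2 lower (20.6% of all genes). In KO macrophages 3 were higher (16.0% of all genes) and 1 lower (15.4% of all genes). Of the 8, Ptger4, a prostaglandin receptor gene 1055601 bases from Dab2, averaged 16.7 and 271 normalized counts in WT and KO microglia (log2 4.05 ± 0.23, adjusted p = 1.11e-09), and Fyb, 82141 bases from Dab2 on its other side, 2840 and 5258 (log2 0.88 ± 0.11, adjusted p = 1.11e-05). In macrophages neither was called (adjusted p = 0.168 and 0.516). Pex5 and Inppl1 were called higher in KO microglia by at most log2 0.50. Folr1, 1137 bases from Folr2, averaged under 1 normalized count in every group (at most 0.910). Dcxr, a reductase gene 2208 bases from Cbr2, differed by log2 0.77 ± 0.19 between KO and WT microglia (adjusted p = 0.00362) and 0.86 ± 0.19 in macrophages (adjusted p = 0.00279). Nisch, 2289 bases from Stab1, differed by 0.29 ± 0.08 in microglia (adjusted p = 0.00546) and 0.06 ± 0.08 in macrophages (adjusted p = 0.591). Rnf141, 6150 bases from Lyve1, differed by 0.76 ± 0.11 (adjusted p = 3.84e-05) and 0.49 ± 0.11 (adjusted p = 0.00329). Thbd, which encodes thrombomodulin, lies 28452 bases from Cd93 and averaged 0.690 and 34.0 normalized counts in WT and KO microglia and 66.0 and 57.1 in WT and KO macrophages. It was called between KO and WT microglia (ratio 49.3, counting interval 13.3 to 412, adjusted p = 4.64e-07) and not in macrophages (log2 -0.20 ± 0.44, adjusted p = 0.766), where Cd93 rose. The 2 genes called lower in KO microglia were Slc39a12 beside Mrc1 (log2 -1.37 ± 0.42, adjusted p = 0.0150) and Ly86 beside F13a1 (-0.93 ± 0.08, adjusted p = 2.60e-07). Ly86 was also called lower in KO macrophages (log2 -0.28 ± 0.08, adjusted p = 0.0199).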
